A study of Saccharomyces cerevisiae with 6 samples.

Results

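The 6 genes described here, TRP1, URA3, LYS2, LEU2, HIS3 and ADE2, are common auxotrophic markers of laboratory strains of budding yeast (Saccharomyces cerevisiae). They were chosen by name, after earlier results of these arrays had shown TRP1, URA3 and LYS2 lying on opposite sides of 0 on 1 array and on the other 5. Each gene had 1 feature among the 7680 on the array, so the members are 6 features in all. Because the same values prompted the choice, those of the 6 genes are given as a description, with no test.

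RNA from cells carrying yra1-1, a temperature-sensitive allele of the mRNA export factor gene YRA1, was compared with RNA from a Yra1 wildtype strain, both at 37 °C, on 6 two-colour arrays. Mutant and wild-type RNA shared each array, and the labels put the mutant RNA into channel 1 for arrays 1, 4 and 6 but into channel 2 for arrays 2, 3 and 5. Both strains were at the temperature called non-permissive for the allele, and the title of array 1 starts with the letters mex, whose meaning the labels do not explain. The auxotrophic alleles and plasmids of the strains, how the wild-type strain was made, and whether the RNAs came from separate cultures are likewise not stated by the labels, so the spread between arrays may be technical.

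Each marker gene encodes an enzyme that a yeast cell needs only when the end product of its pathway is missing from the medium. A strain that has lost the enzyme must be fed the amino acid or base, and an intact copy of the gene, on a plasmid or at a disrupted locus, restores growth without it. This makes the genes selectable markers. A marker transcript is therefore known to differ between strains with the alleles, plasmids and disruptions they carry.

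Every value below is the log2 ratio of a feature on an array after the array's median was subtracted, so 0 is the median feature. The deposited column holds the ratio of the 2 channels, and no label or header says which channel is the numerator. Positive and negative therefore name a side and not mutant or wild type. Values are given in 2 readings: the columns with the sign as deposited, and the columns turned by the labelled channel, in which the signs of arrays 2, 3 and 5 are flipped. If the deposited ratios were channel 1 over channel 2, the turned values would be mutant over wild type, and if the authors had already turned the columns, the deposited signs would run alike.

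An array held values for 7625 to 7680 features, with an SD over them of 0.99 to 1.43. Before centring, the array medians ran from −3.91 to 4.11. They were −1.90, −3.91 and −3.01 for arrays 1, 4 and 6, with the mutant labelled in channel 1. For arrays 2, 3 and 5, with it in channel 2, they were 0.16, 4.11 and −0.44. Across features, columns of the same labelled channel correlated at 0.042 to 0.386 (median 0.259) and columns of opposite channel at −0.135 to 0.326 (median −0.035). Array 1 correlated at 0.307 with array 4 and at 0.168 with array 6, which share its labelled channel. With arrays 2, 3 and 5 it correlated at −0.042, −0.135 and −0.064. Array 6 correlated at 0.299 with array 4, which shares its labelled channel. With arrays 2, 3 and 5, of opposite channel, array 6 correlated at 0.326, 0.255 and −0.018.

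TRP1 (YDR007W), which encodes the phosphoribosylanthranilate isomerase of tryptophan synthesis, lay far from the array median on all 6 arrays. As deposited, array 1 gave −3.48, whereas arrays 2 to 6 gave 3.84, 3.45, 4.16, 3.22 and 2.76. Array 1 was thus low and the other 5 were high, and the size on array 1 lay within the range of the other 5. In rank from the highest value, TRP1 was number 2 of 7680 for array 4, number 13 of 7670 for array 2, number 20 of 7680 for array 3, number 46 of 7680 for array 6 and number 118 of 7656 for array 5. For array 1 it was number 37 of 7625 from the lowest value. The mean was 2.32 ± 2.89 (SD, n = 6), and without array 1 it was 3.48 ± 0.54 (SD, n = 5).

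URA3 (YEL021W), which encodes the orotidine monophosphate decarboxylase of pyrimidine synthesis, lay on the other side from TRP1 on every array. As deposited, array 1 gave 3.19, whereas arrays 2 to 6 gave −3.46, −3.01, −5.92, −2.21 and −4.25. On array 4 it was the lowest of all 7680 values, a 60.7-fold distance from the median. In rank from the lowest value, it was number 18 of 7680 for array 6, number 53 of 7680 for array 3, number 180 of 7670 for array 2 and number 382 of 7656 for array 5. For array 1 it was number 158 of 7625 from the highest value. Array 1 alone on the positive side was a pattern of 162 of the 7592 features with a value on all 6 arrays (2.13%). The mean was −2.61 ± 3.11 (SD, n = 6), and without array 1 it was −3.77 ± 1.41 (SD, n = 5).

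**Figure D1:**
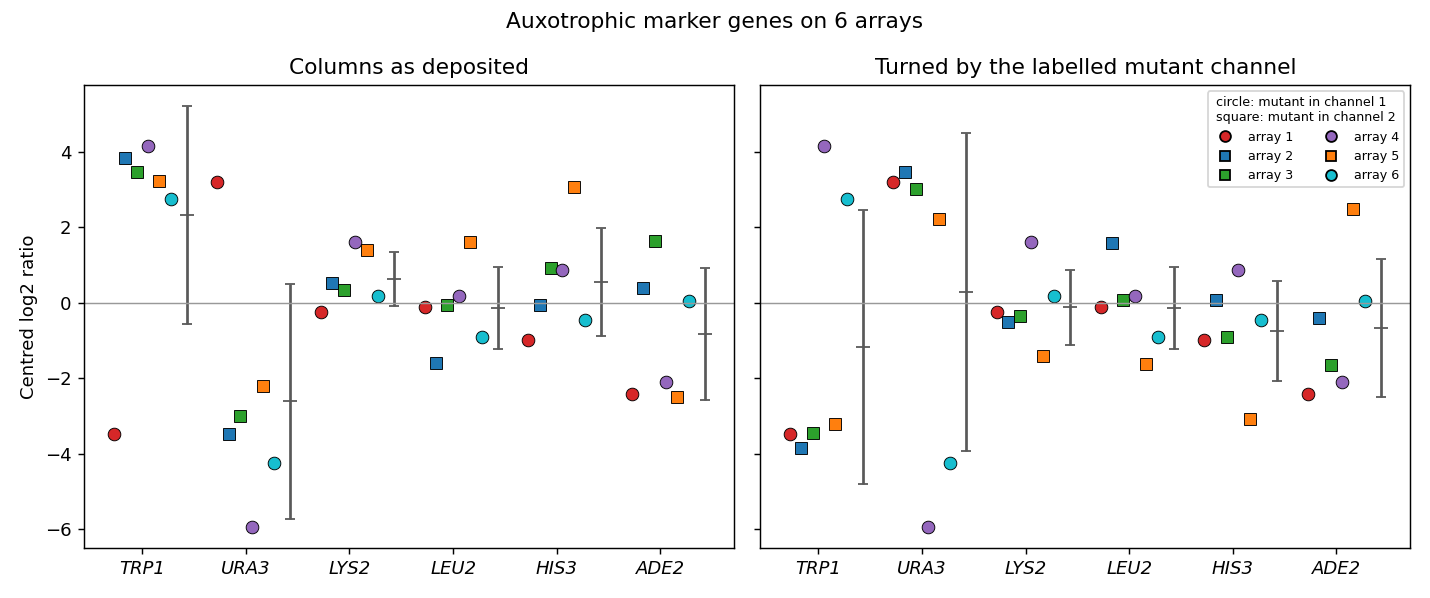
Centred log2 ratio (y axis) of the 6 marker genes (x axis) on each of 6 arrays, as deposited (left) and with arrays 2, 3 and 5 flipped (right). Circles are arrays with the mutant labelled in channel 1, squares those with it in channel 2, and bars are mean ± SD over 6 arrays; as deposited, array 1 sits at −3.48 for TRP1 and at 3.19 for URA3, each opposite to the other 5 arrays.

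The difference between the TRP1 and URA3 values does not depend on how an array was centred, because both come from the same array. For array 1, TRP1 minus URA3 was −6.68, and for arrays 2 to 6 it was 7.30, 6.46, 10.08, 5.43 and 7.01 (log2, as deposited). Its size was smallest on array 5 and largest on array 4, and its sign was turned on array 1 alone. Over arrays 2 to 6 the mean was 7.26 ± 1.73 (SD, n = 5).

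The labelled channel did not follow these signs. Turned by the labels, TRP1 stood at −3.48, −3.84, −3.45, 4.16, −3.22 and 2.76 on arrays 1 to 6. URA3 then stood at 3.19, 3.46, 3.01, −5.92, 2.21 and −4.25. In this reading arrays 1, 2, 3 and 5 lay on 1 side and arrays 4 and 6 on the other for both genes, and the means were −1.18 ± 3.63 for TRP1 and 0.28 ± 4.21 for URA3 (SD, n = 6). Neither reading put all 6 arrays on the same side for either gene.

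Whether the signs followed the labelled channel differed between the days that hold 2 arrays. Days were read from the digits in the array titles and coded in order. Arrays 1 and 3 share the day coded 4 and carry the mutant in opposite channels. Their titles also share a slide number, with different letters after it. As deposited, TRP1 was −3.48 on array 1 and 3.45 on array 3, and URA3 was 3.19 and −3.01. Within that day the values of the 2 arrays mirrored each other, so that the turned mean was −3.47 for TRP1 and 3.10 for URA3 and the mean as deposited was −0.016 and 0.094. Arrays 5 and 6, whose titles give different slide numbers, share the day coded 1 and also carry the mutant in opposite channels. There, however, the signs as deposited were alike. Within that day the mean as deposited was 2.99 for TRP1 and −3.23 for URA3, against a turned mean of −0.23 and −1.02.

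Few features lay this far out on every array. Of the 7592 features with a value on all 6 arrays, 4 (0.0527%) were at least 2 log2 units from the median on each of them. These were TRP1, URA3 and the features of FLO11, a cell surface flocculin, and LOH1, which lie 20 identifiers apart on the array and have equal values on arrays 5 and 6. FLO11 and LOH1 were negative on all 6 arrays as deposited. The limit of 2 was set with these values known.

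**Figure D2:**
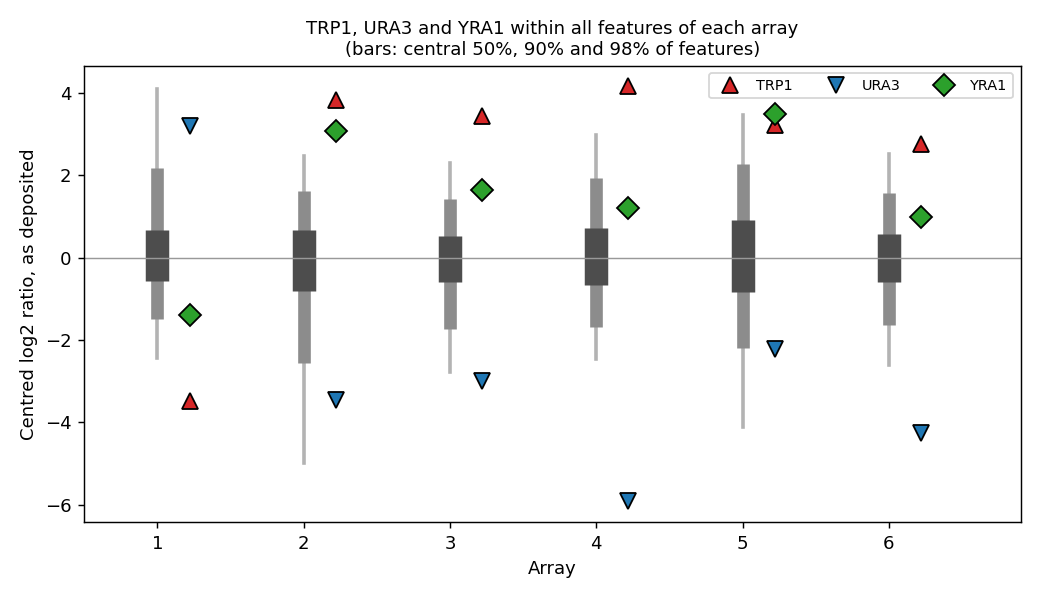
Centred log2 ratio as deposited (y axis) of TRP1, URA3 and YRA1 on each array (x axis), beside grey bars whose limits are quantiles of all features (0.25 to 0.75, 0.05 to 0.95 and 0.01 to 0.99). On array 4 TRP1 at 4.16 and URA3 at −5.92 lie outside the widest bar, and on array 5 both lie inside it.

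LYS2 (YBR115C), which encodes the alpha-aminoadipate reductase of lysine synthesis, had the signs of TRP1 at a much smaller size. As deposited, array 1 gave −0.25, whereas arrays 2 to 6 gave 0.52, 0.34, 1.60, 1.40 and 0.19. The turned values were −0.25, −0.52, −0.34, 1.60, −1.40 and 0.19. The values of arrays 1, 2, 3 and 6 lay close to 0, and arrays 4 and 5 were the highest as deposited. The median of the 8 features beside LYS2 on the array had the same signs on all 6 arrays. Subtracting that median took the LYS2 mean as deposited to 0.16. Being positive on arrays 2 to 6 and negative on array 1 was a pattern of 175 of 7592 features (2.31%), and 337 features (4.44%) had array 1 alone on the other side in either direction. The mean was 0.64 ± 0.72 as deposited and −0.12 ± 0.99 turned (SD, n = 6).

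LEU2 (YCL018W), the beta-isopropylmalate dehydrogenase gene of leucine synthesis, lay on both sides of 0. As deposited it stood at −0.10, −1.58, −0.071, 0.19, 1.61 and −0.91 on arrays 1 to 6. With the labelled channel they became −0.10, 1.58, 0.071, 0.19, −1.61 and −0.91. Arrays 1, 3 and 4 were within 0.2 of the median, array 2 was the lowest as deposited and array 5 the highest. The mean was −0.14 ± 1.08 as deposited and −0.13 ± 1.08 turned (SD, n = 6), each smaller than its spread.

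HIS3 (YOR202W), the imidazoleglycerol-phosphate dehydratase gene of histidine synthesis, was high on array 5 and within 0.98 of the median on the others. As deposited it stood at −0.98, −0.065, 0.91, 0.86, 3.07 and −0.45 on arrays 1 to 6. The turned values were −0.98, 0.065, −0.91, 0.86, −3.07 and −0.45. The array 5 value was number 143 of 7656 from the highest there and larger in size than that of URA3 on the same array. The mean was 0.56 ± 1.43 as deposited and −0.75 ± 1.33 turned (SD, n = 6).

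ADE2 (YOR128C), the phosphoribosylaminoimidazole carboxylase gene of adenine synthesis, whose loss gives red colonies, had 3 arrays on each side. As deposited it stood at −2.42, 0.40, 1.64, −2.09, −2.48 and 0.060 on arrays 1 to 6. With the labelled channel they became −2.42, −0.40, −1.64, −2.09, 2.48 and 0.060. Arrays 1, 4 and 5 were low as deposited and array 3 was high. Its values on arrays 1 and 2 equalled the whole-number ratios 38 to 755 and 143 to 97. No other value of the 6 genes was a ratio of whole numbers with a product under 100000 (relative tolerance 1e-08). The mean was −0.82 ± 1.75 as deposited and −0.67 ± 1.82 turned (SD, n = 6).

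In order of the mean as deposited the genes ran from TRP1 (2.32) through LYS2 (0.64), HIS3 (0.56), LEU2 (−0.14) and ADE2 (−0.82) to URA3 (−2.61). Every gene next to another in this order differed from it by less than the SD of at least 1 of the pair, array 1 being a large part of that SD for TRP1 and URA3. In size, TRP1 and URA3 were the largest 2 of the 6 on arrays 1, 2, 3, 4 and 6. On array 5 HIS3 (3.07) and ADE2 (−2.48) exceeded URA3 (−2.21) in size.

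The feature of the mutated gene, YRA1, had the same signs as TRP1 on all 6 arrays. As deposited, array 1 gave −1.39, whereas arrays 2 to 6 gave 3.07, 1.64, 1.21, 3.49 and 1.00. Only on array 5 was it farther from the median than TRP1. A temperature-sensitive allele need not change the level of its RNA, so these values check no label. Of the other strain markers on the array, the arginine permease gene CAN1 ran from −1.09 to 1.49 and MET17, a methionine and cysteine synthesis gene, from −2.35 to 1.07, each on both sides of 0.

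Features beside TRP1 and URA3 on the array did not share their values. Identifier order was taken to follow position in rows of 20. The 8 features at 1, 2, 20 and 21 identifiers on either side of TRP1 had a median between −0.63 and 0.65 on the 6 arrays. For URA3 this median lay between −0.35 and 0.12. TRP1 was at least 2.56 and URA3 at least 1.86 away from it on every array. For ADE2 the gap differed between arrays: its neighbours' median was −3.45, 0.55 and 1.86 for arrays 1, 2 and 3, where ADE2 itself gave −2.42, 0.40 and 1.64. On arrays 4 and 5, where ADE2 gave −2.09 and −2.48, the neighbours' median was −0.46 and −0.81. Over all arrays ADE2 and this median were 0.033 to 1.68 apart. For LYS2 the neighbours' median was −0.16, 0.46, 0.76, 1.01, 0.67 and 0.14 on arrays 1 to 6, with the sign of LYS2 on each. The LYS2 value and this median were never more than 0.74 apart. For LEU2 and HIS3 the largest gap was 2.05 and 4.12. The part of array position in the ADE2 and LYS2 values was not tested.

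The genes next to TRP1 and URA3 in the genome were also measured. No gene in the current gene table overlaps any of the 6 markers. On either side of TRP1 lie SOK1 and GAL3, the galactose sensor gene. As deposited SOK1 stood at −0.72, −0.36, 0.86, 0.94, 0.84 and 2.96 on arrays 1 to 6, so that it was above TRP1 on array 6 alone. GAL3 ran from −0.60 to 1.28. Beside URA3 lie GEA2, a secretory pathway exchange factor gene, and TIM9, which encodes a mitochondrial import chaperone. GEA2 ran from −0.86 to 1.00 and TIM9 from −1.60 to 0.97, whereas every URA3 value was at least 2.21 in size.

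**Figure D3:**
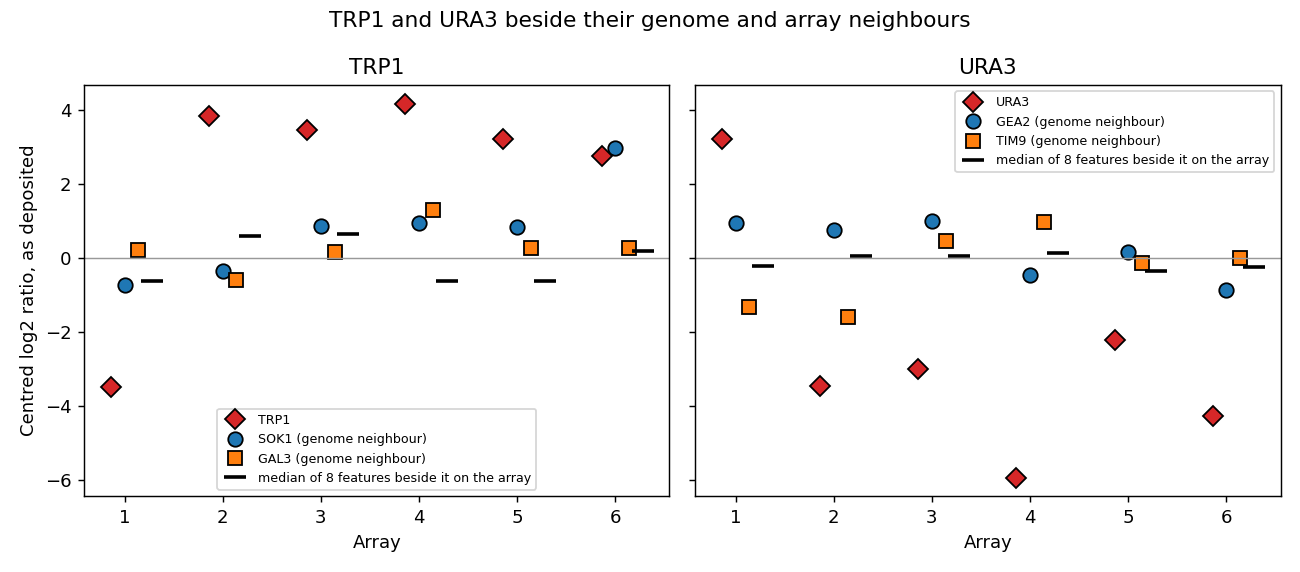
Centred log2 ratio as deposited (y axis) on each array (x axis) of TRP1 (left) and URA3 (right), of the genes on either side in the genome, and as a black dash the median of the 8 features beside each on the array. URA3 lies outside the values of GEA2 and TIM9 on all 6 arrays, and TRP1 outside those of SOK1 and GAL3 on arrays 1 to 5.

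Beside the other markers, RAD16 (−1.50 to 0.73), a DNA repair gene, and TKL2 (−1.41 to 0.21), a transketolase gene, flank LYS2. NFS1 (−1.06 to 2.97), the cysteine desulfurase gene beside LEU2, had its highest value on array 5 like LEU2, and the tRNA gene on the other side of LEU2 had no feature. MRM1 (−2.30 to 0.73), a mitochondrial rRNA methyltransferase gene, and DED1 (−1.19 to 0.87), an RNA helicase gene, flank HIS3, and both were negative on array 5, where HIS3 was high. AFI1 (−2.55 to 4.80), on one side of ADE2, reached farther from the median than ADE2 itself.

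Each marker was set beside the other genes of its pathway, in 6 lists chosen with earlier results known. They held 55 measured genes with 71 features, and 1 listed gene, ADE5,7, had no feature under that name. TRP1 lay outside the range of the 12 features of 9 other aromatic amino acid and tryptophan genes on all 6 arrays. These features had a median between −0.84 and 0.32 on the 6 arrays and a highest value of 2.98, that of 1 of the 2 features of ARO2, the chorismate synthase gene, on array 1. URA3 lay outside the range of the 14 features of 11 other pyrimidine genes on all 6 arrays, whose medians lay between −0.35 and 0.61. LYS2 lay outside its pathway's range on 1 of 6 arrays, LEU2 on 1, HIS3 on 2 and ADE2 on 2.

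The pathway genes themselves were tested in a limma fit over all 7680 features, with Benjamini-Hochberg adjustment and a threshold of 0.05, p-values measuring the spread between these arrays. As deposited, 1 of the 71 pathway features passed, on the negative side, and 4 (5.63%) had an unadjusted p under 0.05, beside 13.5% of all features. Over all features 127 passed (1.65%), of which 44 were positive (0.573%) and 83 negative (1.08%). The median of the 71 pathway features was −0.12 beside 0.017 for all features, with 31.0% positive beside 51.5%. In the turned reading, 0 of the 71 passed, against 0.013% of all features (1), and 8 (11.3%) had an unadjusted p under 0.05, beside 13% of all features. The median was −0.26 beside 0.042, with 36.6% positive beside 53.5%.

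The feature that passed belongs to LYS5, whose product activates the Lys2 enzyme by adding its phosphopantetheine group. It stood at −1.57, −1.87, −1.77, −1.11, −1.31 and −2.53 on arrays 1 to 6, negative on all 6, with a mean of −1.69 ± 0.32 (SE, limma adjusted p = 0.0282). The other feature of LYS5 was at 0.36 as deposited (limma adjusted p = 0.795), with values of 0.10, 0.35, −0.90, 2.04, 0.51 and 0.083, so the 2 features of the gene lay on opposite sides on 5 of 6 arrays. After the median of its array neighbours was subtracted the first feature was at −0.32 (limma adjusted p = 0.601). Leaving out array 1, 2, 3, 4 or 6 also ended the call, with limma adjusted p = 0.0802, 0.0664, 0.113, 0.0833 and 0.142.

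No gene of the other 5 lists passed in either reading. As deposited the smallest p in each belonged to LEU1, the isopropylmalate isomerase gene (−1.24 ± 0.35, SE, limma adjusted p = 0.116, negative on 6 of 6 arrays), ARO2 (−1.37 ± 0.43, adjusted p = 0.146), and URA1, the dihydroorotate dehydrogenase gene (0.73 ± 0.36, adjusted p = 0.429). In the histidine and adenine lists it belonged to HIS2 (−0.44, adjusted p = 0.624) and ADE13 (0.46, adjusted p = 0.701). The other features of LEU1 (−0.081) and ARO2 (0.098) were near 0, so neither gene's value was repeated by its second feature. The second feature of URA1 was at 0.42 and that of ADE13 at −0.12.

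Turned by the labels, the smallest p in the lists belonged to LEU4, an isopropylmalate synthase gene (1.51 ± 0.39, SE, limma adjusted p = 0.233), ADE17, a late enzyme of purine synthesis (−1.11 ± 0.33, adjusted p = 0.254), and LYS20, a homocitrate synthase gene (−0.93 ± 0.33, adjusted p = 0.286). ARO7, the chorismate mutase gene (0.79, adjusted p = 0.333), URA1 (−0.81, adjusted p = 0.373) and HIS1, the gene of the first enzyme of histidine synthesis (−0.75, adjusted p = 0.387), followed. The other feature of URA1 was near 0 in this reading (0.077). By list, the median as deposited was −0.14 for tryptophan, 0.13 for pyrimidine, −0.25 for lysine, −0.20 for leucine, −0.24 for histidine and −0.083 for adenine genes. Turned, it was −0.16, −0.047, −0.32, −0.10, −0.47 and −0.33 in the same order.

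The features most like each marker across the 6 arrays were sought among 2558 named features with a value on all arrays and an SD of at least 1. For TRP1 these were PUT1, the proline oxidase gene (Pearson r = 0.963 over 6 arrays), YIP5 (r = 0.956) and RDL1 (r = 0.949). Their sizes were smaller: PUT1 had −1.96 for array 1 and 0.12 to 0.64 for arrays 2 to 6. RDL1 had the signs of TRP1 on all 6. YIP5 was negative on arrays 3 (−0.34), 5 (−0.46) and 6 (−0.52), where TRP1 was positive. For URA3 they were ATR2 (r = 0.970), PAP1, the poly(A) polymerase gene (r = 0.943), and SSP1 (r = 0.926). ATR2 had 1.46 for array 1 and −1.50 to −0.70 for arrays 2 to 6, with the signs of URA3 on all 6. PAP1 also had those signs, but SSP1 was positive on arrays 3 (0.65) and 5 (0.31), where URA3 was negative.

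For the other markers the most alike was RPB4, an RNA polymerase II subunit gene, for LYS2 (r = 0.986), DAL2, the allantoicase gene, for LEU2 (r = 0.997), ADH1, an alcohol dehydrogenase gene, for HIS3 (r = 0.995) and COG7 for ADE2 (r = 0.983). All lay 738 or more identifiers away from their marker on the array. With 6 points that share arrays and their centring, and with array 1 or array 5 far from the rest, such r values describe the shape on these arrays only. Among the markers, TRP1 and URA3 had r = −0.933 and opposite signs on 6 of 6 arrays.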

How the data were processed

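Each deposited value is a log10 ratio. No label or header states this scale, which was inferred from the numbers, nor the authors' image analysis, background treatment, normalization or numerator channel (not given in the sources used here). Per array, 43 to 793 deposited values were log10 ratios of whole numbers with a product under 100000, against 1 to 7 in base 2. Of 7684 rows, 3 repeated identifiers were averaged and 1 row whose identifier is no number was dropped, leaving 7680 features. GEO's platform annotation gave 1 gene symbol for 6695 and none for 985, and 6690 matched the current gene table (R64), which served for names and neighbours only. Values were converted to log2 and centred on each array's median. Features with values on at least 4 arrays, 2 of each channel assignment, entered a linear model in limma 3.58.1 under R 4.3.3 (eBayes moderation), with 1 coefficient for the sign as deposited and 1 for the labelled channel. Tests were two-sided. The fit was tested on simulated data with independent noise for each feature and array and shifts in the sign as deposited only. Those data held no effects shared by an array, a day or a position, so they cannot show how the fit behaves under such effects. The members, lists and alternatives were chosen with earlier results of these data known. Named beyond the 6 members were the gene with the smallest p per pathway list and reading (passing genes first), genome neighbours, the genes most alike in shape, and YRA1, CAN1 and MET17; FLO11 and LOH1 were named after their values were seen, and 1 genome neighbour is not reported here. No scanner intensities were used, so how far a spot stood above background cannot be given, and the number of arrays limits the precision. The alternatives left out each array, averaged the arrays of a day, omitted centring, turned array 1 over, subtracted the neighbours' median, left out repeated values or ratios of small whole numbers (here a product under 10000000), equalised array spread, fitted each coefficient alone, and kept features present on all arrays.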

Additional observations from a re-analysis of the deposited data

Results flagged for a closer look

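In the reading turned by the labels, HIS1 stood apart on array 5 at −2.17, against −0.82 to −0.17 on the other 5 arrays, with a gap to the nearest of 0.675 of the whole range, above Dixon's critical value of 0.625 for 6 arrays. NFS1, the genome neighbour of LEU2, did so at −2.97 on array 5 against 0.088 to 1.06 (0.758 of the range). These were 2 of 50 tests on 25 features, and chance alone gives such a gap in about 1 of 20. The 6 markers were not among the features tested.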

How the results depend on the processing

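Of the alternative values of the 6 marker means, 163 moved by less than the SD over arrays. The other 5 came without centring: as deposited LYS2 moved to −0.20, and turned by the labels LYS2 moved to −2.23, LEU2 to −2.24, HIS3 to −2.86 and ADE2 to −2.78, which follows from the array medians being added back. Leaving out 1 array gave as deposited 1.96 to 3.48 for TRP1, −3.77 to −1.95 for URA3, 0.44 to 0.81 for LYS2, −0.49 to 0.14 for LEU2, 0.056 to 0.86 for HIS3 and −1.31 to −0.48 for ADE2. Turned, it gave −2.25 to −0.65, −0.35 to 1.52, −0.47 to 0.14, −0.47 to 0.17, −1.07 to −0.28 and −1.30 to −0.32 in the same order, so the sign of the LEU2 mean in both readings and of the turned URA3 and LYS2 means depended on single arrays. Other alternatives also changed signs of means: turned URA3 went to −1.83 without centring, −0.78 with array 1 turned over and −0.096 with the arrays of a day averaged, turned LYS2 to 0.025 after subtracting the neighbours' median and 0.045 by day, turned LEU2 to 0.125 by day, turned ADE2 to 0.14 with array 1 turned over and 0.25 after subtracting the neighbours' median, and HIS3 as deposited to −0.275 without centring. Turned TRP1 was −0.017 with array 1 turned over. Without ratios of small whole numbers it was −3.58, on 4 of its arrays. The values left out were those of arrays 4 and 6, the 2 that were positive in this reading.

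As deposited, 127 features passed in limma: 2 without centring, 2 with array 1 turned over, 3 after subtracting the neighbours' median and 30 without repeated values, and 45, 69, 15, 0, 214 and 0 without array 1 to 6 in turn (817 and 783 with an unadjusted p under 0.05 for the counts of 0). Turned, 1 passed in limma: 33 with the arrays of a day averaged, 4887 without centring, 2 with equal array spread, 0 to 4 without 1 array, and 0 after subtracting the neighbours' median, without repeated values or with features present on all arrays (683, 919 and 990 at an unadjusted p under 0.05). The 1 pathway feature passing as deposited became 0 without centring, with array 1 turned over, after subtracting the neighbours' median and without repeated values (4, 6, 4 and 4 at an unadjusted limma p under 0.05), and 0 to 1 without 1 array. Turned, 53 pathway features passed without centring, all negative, against 0. Of the 4887 passing there over all features, 4886 were negative. Without centring the array medians were added back, as for the marker means. The cause of the other changes was not tested. Signs were reversed without centring for ADE13 (−0.37), URA1 as deposited (−0.10), ARO7 (−1.32) and LEU4 (−0.60), and after subtracting the neighbours' median for ARO7 (−0.19). Mutant and wild-type RNA were paired within each array, whose ratio is the value used. The arrays form a single group, so there was no second group to pair them with. Same-day arrays were compared in the text above and averaged in 1 of the alternatives.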
